A study of Mus musculus with 15 samples.

Results

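The genes described here are 43 cell cycle and proliferation genes that act in DNA replication, mitosis and cytokinesis, measured by RNA-seq in mouse liver. They were picked by name, by a rule that reads no value, but with earlier results of these data known. All 43 were found among the 55573 genes of the count table. All 43 were also among the 17655 genes with enough reads to be tested. The study compared liver RNA of females and males with and without estrogen receptor alpha, the product of *Esr1*, at 8 weeks of age. The 15 livers came from 15 mice labelled with the strain B6N(Cg)-Esr1tm4.2Ksk/J. There were 3 wild type females (FWT1 to FWT3), 3 wild type males (MWT1 to MWT3), 5 homozygous ESR1KO females (FKO1 to FKO5) and 4 homozygous ESR1KO males (MKO1 to MKO4). ESR1KO mice lack exon 3 of *Esr1* in every organ, are infertile and have elevated testosterone in both sexes, so the loss of the receptor in the liver cannot be told apart from its loss elsewhere or from the hormonal change.

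Cells that divide copy their DNA in S phase and separate it in mitosis. In resting cells, the DREAM complex and the pocket proteins hold the genes for both steps silent, E2F factors switch on the genes for replication at the entry into S phase, and B-MYB and FOXM1 switch on the mitotic genes later. Hepatocytes of an adult liver are mostly quiescent and re-enter the cycle after injury or loss of tissue, and immune, endothelial and blood-forming cells of the organ can also divide. In whole liver, more dividing cells and more RNA per dividing cell cannot be told apart.

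Total counts ranged from 27799061 to 78624766 per liver. *Esr1* itself lay between 74.7 and 88.2 CPM (read counts divided by library size and set to a common scale) in wild type females, 25.0 and 52.0 in wild type males, 9.67 and 19.7 in the females lacking the receptor, and 8.22 and 16.1 in the males lacking it, with no overlap between genotypes within a sex. Summed CPM of 5 hepatocyte markers was 74054 to 107330 in the 15 livers, the tissue on the labels. The member counts were low: the smallest count of any member in any liver was 3 and the largest was 1860.

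Promoters of mitotic genes often carry CCAAT boxes, bound by NF-Y, and a cell cycle genes homology region (CHR), bound by DREAM and B-MYB complexes. The 120 bases before the RefSeq transcription start (build GRCm38.p6) were found for 37 of the 43 members. Of these, 6 are shown because they belong to the members that varied most and least between mice of a group. They are the 3 members with the largest and the 3 with the smallest biological coefficient of variation among 18 whose window touches no annotated exon, a choice made after their values were seen. Capitals mark CCAAT (or ATTGG, the same box on the other strand). No window shown holds a CHR in the forms searched, TTTGAA or TTCGAA.
Ttk: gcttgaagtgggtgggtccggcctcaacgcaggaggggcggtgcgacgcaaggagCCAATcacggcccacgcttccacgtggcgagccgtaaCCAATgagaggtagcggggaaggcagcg
Nuf2: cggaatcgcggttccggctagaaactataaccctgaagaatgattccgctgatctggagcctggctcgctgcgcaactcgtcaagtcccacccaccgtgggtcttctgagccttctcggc
Cenpf: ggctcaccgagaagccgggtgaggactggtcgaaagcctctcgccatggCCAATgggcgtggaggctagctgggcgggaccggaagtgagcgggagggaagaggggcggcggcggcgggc
Tyms: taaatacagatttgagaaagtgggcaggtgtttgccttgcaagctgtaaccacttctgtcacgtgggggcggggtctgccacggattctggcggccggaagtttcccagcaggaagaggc
Mcm3: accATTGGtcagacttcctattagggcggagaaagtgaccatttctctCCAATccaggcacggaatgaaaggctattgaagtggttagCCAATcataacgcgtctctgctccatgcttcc
Mcm6: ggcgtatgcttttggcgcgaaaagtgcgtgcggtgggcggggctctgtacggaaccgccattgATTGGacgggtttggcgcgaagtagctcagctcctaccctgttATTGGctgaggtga
*Ttk* (chr9:83834569-83834688 on the plus strand), *Nuf2* (chr1:169531465-169531584 on the minus strand) and *Cenpf* (chr1:189688087-189688206 on the minus strand) encode a spindle checkpoint kinase and kinetochore proteins. *Tyms* (chr5:30073626-30073745 on the minus strand), *Mcm3* (chr1:20820313-20820432 on the minus strand) and *Mcm6* (chr1:128359706-128359825 on the minus strand) act in thymidylate synthesis and in the replicative helicase. The sequences run 5′ to 3′ on the strand of the gene.

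Over the 37 promoters, CCAAT on either strand was present in 27 (73.0%), against 24.2% of 27025 genes with a promoter of the same length. The CHR, searched as TTTGAA or TTCGAA on either strand, was present in 10 members (27%), against 8.83% of all genes. Both were present in 8 members (21.6%), against 2.27% of all genes. GCGGGAA, the only form of the E2F motif searched, was on either strand in 0 of the 37 members and in 2.42% of all genes. Of 30 other replication genes with a promoter, 9 held it. Other forms of the motif were not searched, so the 0 does not show that the members lack E2F sites. Of the spindle, cytokinesis and chromosome members, 5 of 8 held a CHR, and of the centromere and kinetochore members 0 of 7 did. Other forms of the CHR and bases after the start were not searched, so this 0 does not show that a CHR is lacking. These are matches of letters and not shown to be bound sites in these livers.

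The clearest feature of the members was a difference between single mice. Each mouse was read from a single library, so a difference between mice cannot be told apart from a difference between libraries. Wild type female FWT1 and ESR1KO male MKO2 held the highest values of most members, in different groups. FWT1 was the highest of the 15 mice for 34 of the 43 members and second for 7. MKO2 was the highest for 5 and second for 30, and in 35 members these mice took both of the top places. The other wild type female FWT2 was the lowest of all mice for 22 members. The summed CPM of the 43 members was 207.1 in FWT1, 83.1 in FWT2 and 107.9 in FWT3. It was 107.4, 90.2 and 108.9 in the wild type males, 99.4, 108.7, 134.2, 108.5 and 102.4 in FKO1 to FKO5, and 127.6, 180.5, 103.2 and 110.6 in MKO1 to MKO4. Wild type females therefore held both the highest and the lowest sum of the 15 livers.

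**Figure D1:**
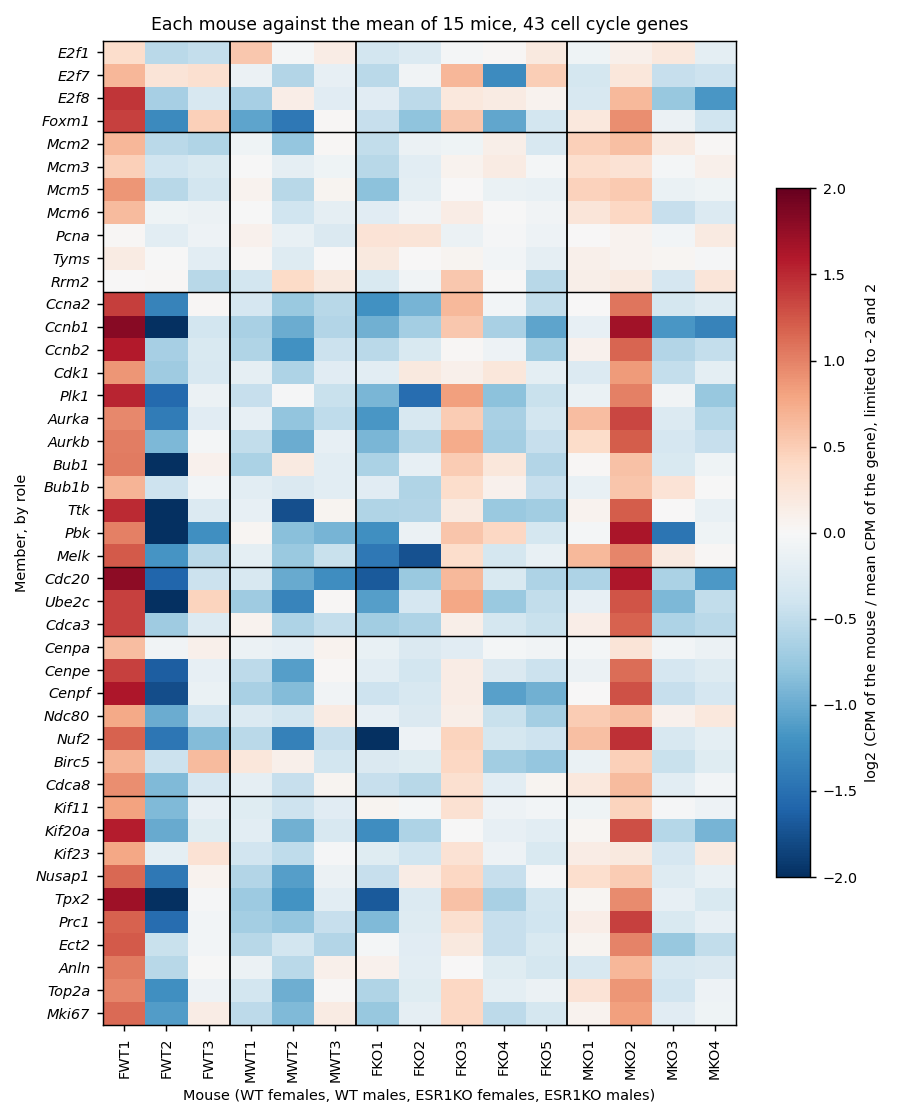
Heat map of log2 CPM in each of the 15 mice (columns, by group) minus the log2 mean of the gene, for the 43 members (rows, by role), with colours limited to -2 and 2. The columns of FWT1 and MKO2 are red for most rows, FWT2 is blue for most mitotic genes, and the rows of *Pcna* and *Tyms* are near white throughout.

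Against the mean of the other mice of its group, FWT1 had a median ratio of 2.87 over the 43 members, with a range from 1.14 to 6.99. MKO2 had a median ratio of 1.97 (1.02 to 5.51), and ESR1KO female FKO3 had 1.56 (0.848 to 3.23). FWT1 was the highest of its 3 mice for 42 members (over all tested genes, FWT1 was highest for 35.1%), MKO2 the highest of 4 mice for 38 (28.6%), and FKO3 the highest of 5 mice for 35 (17.0%). Over all 17655 genes, the median ratios of these 3 mice were 0.993, 0.989 and 0.995. The 3 mice were singled out after their member values were seen, so their high shares among the members follow in part from that choice. Within groups, the median ratio of the highest to the lowest mouse was 4.27 in wild type females, 1.55 in wild type males, 1.93 in the females without *Esr1* and 2.38 in the males without it. The largest was 19.2, for *Tpx2*, a spindle assembly factor, in wild type females.

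The ratios differed by role. In the 7 replication and nucleotide genes the median ratio was 1.68 in FWT1, 1.11 in MKO2 and 1.15 in FKO3. In the 12 cyclins and mitotic kinases it was 3.91, 2.42 and 1.96. In the 3 ubiquitin pathway members, *Cdc20*, *Ube2c* and *Cdca3*, it was 3.57, 3.36 and 2.64. In the 10 spindle, cytokinesis and chromosome genes it was 2.84, 1.94 and 1.48, in the 7 centromere and kinetochore genes 2.87, 1.67 and 1.51, and in the 4 regulators 2.33, 1.79 and 1.53. The summed CPM of the replication members was 56.9 ± 13.3 (SD, n = 3) in wild type females and 56.7 ± 3.08 (n = 5) in ESR1KO females. That of the spindle, cytokinesis and chromosome members was 34.1 ± 23.9 and 24.6 ± 5.81 in these groups.

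**Figure D2:**
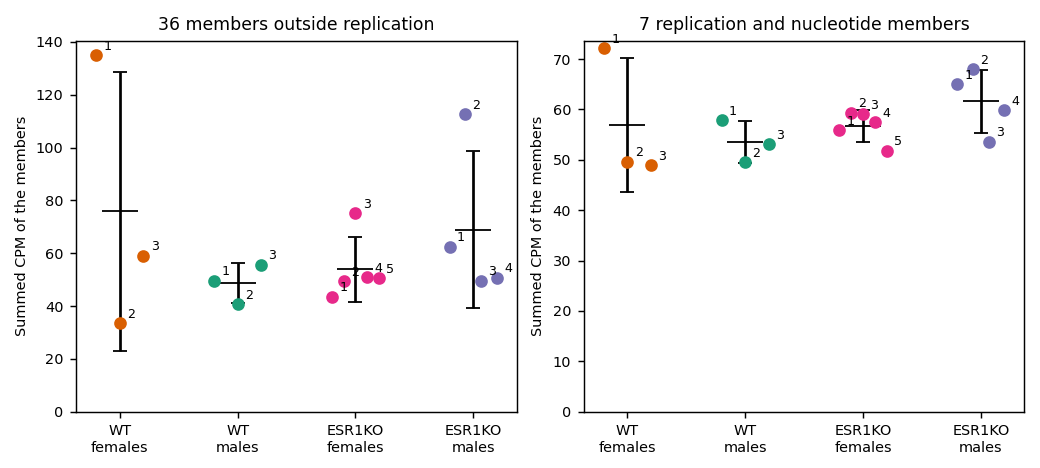
Summed CPM per mouse of the 36 members outside replication (left) and the 7 replication and nucleotide members (right) in the 4 groups, with mouse numbers beside the points and bars for the mean and SD. FWT1 and MKO2 stand above their groups on the left. On the right FWT1 (72.2 CPM, against 49.6 and 48.9) and MKO2 (68.0) are also the highest of their groups.

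FWT1 and MKO2 share no group, so their ratios come from separate mice. Across the 43 members the log2 deviations of the 2 mice, each from the mean of the other mice of its group, had r = 0.818 and rho = 0.815. Across 58 other mitotic genes r was 0.779, across 38 other replication genes 0.612, and across all 17655 genes 0.0878. These correlations are over genes, which are not independent replicates, and they are given as a description. Of the 17655 genes, 66 had a ratio over 2 in both mice, of which 21 were members and 16 were other mitotic genes. Both mice were singled out for high member values, so the share of members follows in part from that choice. FWT1 and FKO3 had r = 0.583 over the members, and MKO2 and FKO3 had 0.582.

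**Figure D3:**
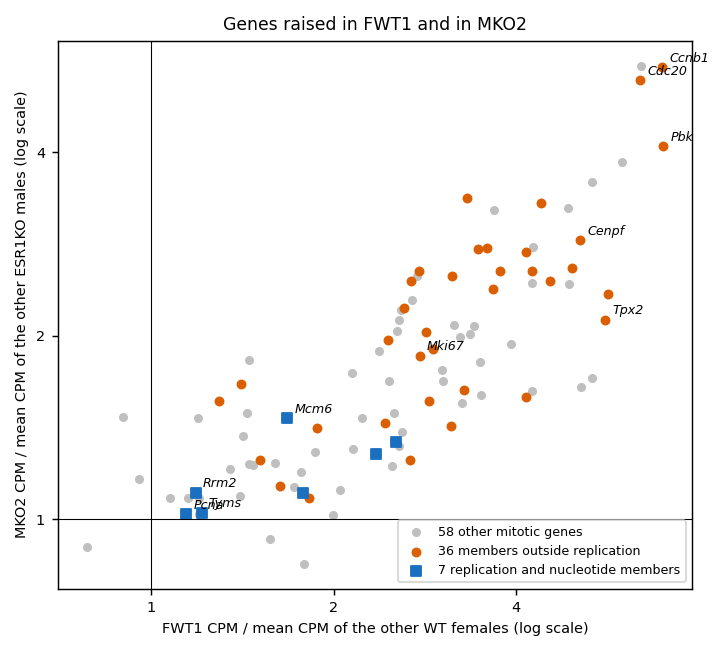
Ratio of FWT1 to the mean of the other wild type females (x axis, log scale) against the ratio of MKO2 to the mean of the other ESR1KO males (y axis, log scale), 1 point a gene. Replication members (squares) lie below 1.5 on the y axis but reach 2.54 (*Mcm5*) on the x axis, and *Ccnb1*, *Cdc20* and *Pbk* lie farthest from it.

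Genes of other cell types were read in the same mice. Summed CPM of the macrophage markers was 286 to 343 in wild type females and lowest in FWT1, and the B and plasma cell markers (3.46) and the T and NK cell markers (2.18) were also lowest in FWT1 within its group. In MKO2 the T and NK sum, 1.21 CPM, was the lowest of the ESR1KO males. The 7 tested of 8 erythroid markers summed to 163 in FWT1, 106 in FWT2, 559 in FWT3 and 431 in MKO2, where ESR1KO males ranged from 354 to 730. The 5 stellate cell markers summed to 520 in FWT1, 436 in FWT2 and 423 in FWT3, with 4 of the 5 highest in FWT1 within its group, and to 413 in MKO2, the lowest of the ESR1KO males. The 5 endothelial markers summed to 393 to 405 in wild type females, and the 5 cholangiocyte markers to 32.4 to 32.9. Only 2 of 6 neutrophil and myeloid precursor markers were tested, and they summed to 0.55 to 0.85 CPM in wild type females. The 3 tested of 4 fetal and progenitor liver markers summed to 3.94 in FWT1, 2.26 in FWT2 and 1.70 in FWT3. All 3 were highest in FWT1 in its group. Their sum was 3.14 to 3.40 in wild type males, 2.37 to 4.03 in ESR1KO females and 3.58 to 3.97 in ESR1KO males. The sum of FWT1 therefore lay within the ranges of both ESR1KO groups. MKO2 held the highest sum of the ESR1KO males, 3.97, with 1 of the 3 markers highest in this mouse. The part of these cells in the values of FWT1 and MKO2 was not tested.

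Of the regulators, *E2f1*, an activator of S phase genes, was 2.91, 1.57 and 1.63 CPM in FWT1 to FWT3, 3.29, 2.20 and 2.52 in MWT1 to MWT3, 1.75, 1.88, 2.22, 2.31 and 2.60 in FKO1 to FKO5, and 2.13, 2.43, 2.61 and 1.98 in MKO1 to MKO4. The highest value was in a wild type male, and the groups overlapped. *Foxm1*, the activator of mitotic genes, was 1.86, 0.30 and 1.01 in wild type females, 0.35, 0.27 and 0.73 in wild type males, 0.52, 0.41, 1.04, 0.35 and 0.56 in ESR1KO females, and 0.83, 1.38, 0.66 and 0.55 in ESR1KO males. FWT1 and MKO2 were the highest, and FWT2 was among the lowest.

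Of the replication genes, *Pcna*, the sliding clamp of DNA polymerase, had the highest level per length, 9.11 CPM per kb of exon as the mean of the 15 mice. It was 22.3, 18.9 and 20.3 CPM in wild type females, 23.3, 19.7 and 18.0 in wild type males, 26.5, 26.2, 20.1, 21.5 and 20.5 in ESR1KO females, and 22, 23, 21.1 and 24.7 in ESR1KO males. The highest value was 1.48 times the lowest over all 15 mice, and neither FWT1 nor MKO2 stood apart. *Mcm6*, *Mcm3*, *Rrm2* and *Tyms* followed at 1.78, 1.75, 1.72 and 1.19 CPM per kb.

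*Mcm6*, a helicase subunit, was 12.9, 7.79 and 7.63 CPM in wild type females, 8.25, 6.33 and 7.34 in wild type males, 7.07, 7.94, 9.23, 8.29 and 7.95 in ESR1KO females, and 9.83, 11.1, 6.01 and 6.88 in ESR1KO males. *Mcm3*, of the same helicase, was 9.13, 4.96 and 5.32, then 6.55, 5.77 and 6.20, then 4.46, 5.68, 6.85, 7.34 and 6.38, and last 8.31, 8.00, 6.37 and 7.02 in the same order of mice. *Mcm2* was 7.14, 3.11 and 2.96, then 4.25, 2.64 and 4.58, then 3.21, 4.16, 4.25, 4.90 and 3.59, and last 6.29, 6.81, 5.10 and 4.57. All 3 helicase genes were highest in FWT1, with MKO1 and MKO2 next in *Mcm2* and *Mcm3*.

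*Rrm2*, a subunit of ribonucleotide reductase, was 4.76, 4.82 and 3.23 CPM in wild type females, 3.70, 6.18 and 5.45 in wild type males, 3.87, 4.55, 6.93, 4.71 and 3.23 in ESR1KO females, and 5.13, 5.36, 3.78 and 5.64 in ESR1KO males. *Tyms*, thymidylate synthase, was 8.15, 7.19 and 6.28, then 7.39, 6.06 and 7.25, then 8.32, 7.25, 7.51, 6.97 and 6.40, and last 7.73, 7.60, 7.44 and 7.09 in the same order. *Rrm2* was the member for which FWT2, not FWT1, was highest of the wild type females, and *Tyms* spanned 1.37 times from lowest to highest.

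Of the cyclins and kinases, *Cdk1*, the mitotic kinase, was 4.02, 1.34 and 1.74 CPM in wild type females, 1.93, 1.42 and 1.87 in wild type males, 1.89, 2.51, 2.35, 2.54 and 1.90 in ESR1KO females, and 1.81, 3.92, 1.57 and 1.92 in ESR1KO males. *Ccna2*, its partner in S and G2 phase, was 4.37, 0.67 and 1.72, then 1.33, 1.0 and 1.14, then 0.73, 0.88, 2.63, 1.61 and 1.19, and last 1.70, 3.52, 1.32 and 1.41. *Ccnb1*, its mitotic partner, was 3.44, 0.23 and 0.76, then 0.62, 0.49 and 0.65, then 0.50, 0.61, 1.41, 0.62 and 0.47, and last 0.87, 3.10, 0.44 and 0.39. FWT1 and MKO2 were the highest mice in all 3 genes, and *Ccnb1* spanned 14.9 times between its extremes.

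*Cdc20*, an activator of the anaphase-promoting complex, was 4.78, 0.46 and 1.03 CPM in wild type females, 1.11, 0.68 and 0.59 in wild type males, 0.43, 0.83, 2.16, 1.12 and 0.91 in ESR1KO females, and 0.90, 4.22, 0.89 and 0.63 in ESR1KO males. *Mki67*, the gene of the Ki-67 antigen of dividing cells, was 16.7, 3.53 and 8.50, then 5.33, 4.13 and 8.53, then 4.53, 6.76, 10.1, 5.29 and 5.98, and last 8.06, 13.4, 6.50 and 7.18. *Top2a*, a topoisomerase of mitotic chromosomes, was 10.6, 2.28 and 4.97, then 4.15, 2.71 and 5.44, then 3.53, 4.52, 7.17, 4.67 and 4.96, and last 6.47, 9.87, 4.11 and 4.97. In these 3 genes FWT1 was highest, followed by MKO2 and FKO3. *Cdc20* and *Top2a*, like *Foxm1*, *Ccna2*, *E2f7* and *Prc1*, are among the 12 members that share exon bases with another annotated gene. Reads could be split or added in these members.

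The first question of the design was whether females and males differ, in wild type and in ESR1KO mice. Between wild type females and males, 0 of 43 members passed adjusted p = 0.05 by the edgeR quasi-likelihood test, where 4.87% of all 17655 genes did. The median log2 fold change of the members was 0.67 (41 of 43 above 0), against 0.0143 over all genes. At an unadjusted p, 4 members passed (17.3% of all genes did): *Foxm1*, *Ccnb2*, *Kif23* and *Ect2*, each higher in females. The smallest adjusted p was 0.187, for *Kif23*, a kinesin of cytokinesis (log2 fold change 0.63, 95% interval 0.10 to 1.15). *Mki67* differed by 0.67 (interval -0.25 to 1.59, adjusted p = 0.473) and *Ccnb1* by 1.36 (-0.37 to 3.09, adjusted p = 0.433), and without FWT1 these became -0.0053 and -0.25.

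Between ESR1KO females and males, 0 of 43 members passed, against 0.272% of all genes, and the median was -0.43 (40 of 43 below 0). At an unadjusted p, 1 member passed (17.5% of all genes did), *Ndc80*, a kinetochore gene (-0.63, interval -1.25 to -0.01, adjusted p = 0.277). Between the sexes the CPM ranges did not overlap for 1 member in wild type mice (*E2f7*, an E2F repressor) where 30.1% of all genes did not overlap, and for 0 members in ESR1KO mice, where 5.22% did not.

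The second question was what the loss of *Esr1* changed. In females 0 of 43 members passed, against 5.71% of all genes, and the median was -0.47 (38 of 43 below 0). At an unadjusted p, 3 members passed (22.5% of all genes): *Cenpa*, a centromeric histone, *Birc5*, survivin, and *Kif23*. The smallest adjusted p was 0.112, for *Cenpa* (-0.40, interval -0.71 to -0.09). Ranges of ESR1KO and wild type females overlapped for every member, while 15.6% of all genes did not overlap.

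In males 0 of 43 members passed, against 1.42% of all genes, and 0 passed at an unadjusted p (11.9% of all genes did). The median was 0.54 (39 of 43 above 0). The smallest adjusted p was 0.435, for *Prc1*, a midzone protein (1.04, interval -0.02 to 2.10). In 5 members, *Bub1b*, *Melk*, *Nuf2*, *Kif11* and *Prc1*, the value was higher in every ESR1KO male than in any wild type male, where 15.9% of all genes did not overlap. Over both sexes 0 members passed against 4.13% of all genes, with a median of 0.00118 and 22 above 0.

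The genotype effects of the sexes were compared by the interaction, the effect in females minus that in males. It passed for 0 of 43 members, against 1.94% of all genes. At an unadjusted p, 8 members passed, all negative (14.3% of all genes): *Foxm1*, *Ccnb2*, *Melk*, *Cenpa*, *Cenpf*, *Kif23*, *Prc1* and *Ect2*. The smallest adjusted p was 0.251, for *Ccnb2* (-1.80, interval -3.25 to -0.35), and without FWT1 and MKO2 this became -0.20 (adjusted p = 0.874). The 6 comparisons share mice, so these counts are not independent of each other. DESeq2 also gave 0 members in each of the 6 comparisons, with any member left without an adjusted p counted as not passed. The share of all genes that passed with DESeq2 is not given here, so this 0 has no background beside it.

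The direction of 3 medians rested on these mice. Without FWT1 alone, the median between wild type females and males was -0.16 and that between ESR1KO and wild type females 0.26. With both FWT1 and MKO2 left out, a choice made after their values were seen, the medians were -0.16, -0.05, 0.26 and 0.20 for wild type females minus males, ESR1KO females minus males, and ESR1KO minus wild type in females and in males. The interaction median went from -0.89 to 0.04, and the median over both sexes to 0.23. The numbers of members above 0 were then 14, 17, 38 and 31 in the 4 comparisons of groups, 25 in the interaction and 38 over both sexes (22 with all mice). Again 0 members passed in each of the 6 comparisons, where 0.241% to 3.26% of all genes did. With all 15 mice the median standard error of a member between wild type females and males was 0.452 on the log2 scale, against 0.189 over all genes. The median biological coefficient of variation of the members was 0.366, against 0.151 over all genes, and 40 of the 43 members lay above the median of all genes. It was 0.195 for the replication members, 0.432 for the cyclins and kinases and 0.556 for the ubiquitin pathway members.

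**Figure D4:**
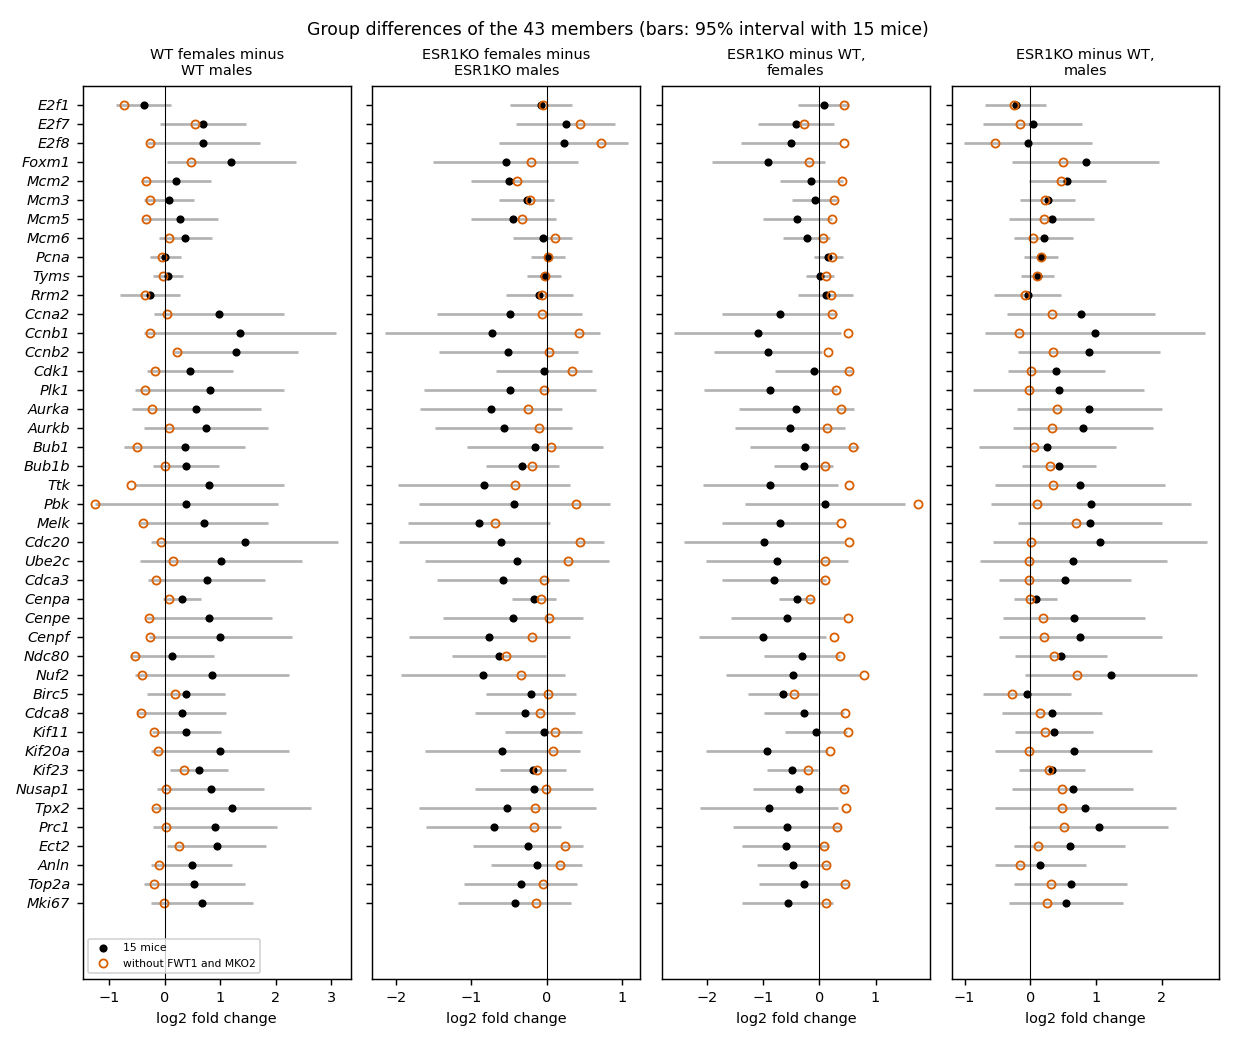
Log2 fold change of each of the 43 members in 4 comparisons with all 15 mice (black points, grey bars for the 95% interval) and without FWT1 and MKO2 (open circles). Most black points lie to the right of 0 in the outer panels and to the left in the inner panels, and most open circles lie nearer to 0 or on its other side.

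Genes of the wider pathway were read from 6 lists. Of 16 genes for pocket proteins, DREAM subunits and other E2Fs, 0 passed in any comparison. Of 12 G1 cyclins and kinases, only *Ccnd1*, cyclin D1, which drives G1 entry, passed. It was 169, 156 and 130 CPM in wild type females and 30.3, 22 and 51.2 in wild type males, with no overlap. It was 50.2, 48.1, 89.1, 48.8 and 56.9 in ESR1KO females and 62.1, 61.4, 20.1 and 26.2 in ESR1KO males. Wild type females were higher than males by 2.13 on the log2 scale (SE 0.40, edgeR adjusted p = 0.00325), and ESR1KO females were lower than wild type females (-1.37, SE 0.33, edgeR adjusted p = 0.0249). The second call was lost without FWT1, FWT2, FWT3 or FKO2 (adjusted p up to 0.0911, without FWT1). FWT1 and MKO2 did not stand apart here: over the 12 genes their median ratios were 1.01 and 1.11. *Ccnd1* shares exon bases with a gene on the other strand.

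Of 38 other replication genes, *Mcm10*, a replication initiation factor, was 44.2, 51.8 and 47.8 CPM in wild type females and 139, 205 and 106 in wild type males. It was 95.5, 100, 111, 99.3 and 125 in ESR1KO females and 101, 123, 102 and 102 in ESR1KO males, all above the wild type females. The female minus male difference was -1.65 in wild type mice (SE 0.19, edgeR adjusted p = 1.74e-05), ESR1KO females were higher than wild type females by 1.15 (SE 0.17, adjusted p = 0.000533), and the interaction was 1.64 (adjusted p = 0.000649). All 3 calls held without any single mouse.

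*Tk1*, thymidine kinase of the salvage pathway, was 40.6, 44.0 and 47.7 CPM in wild type females, 26.3, 27.7 and 25.4 in wild type males, 19.5, 23.1, 22.3, 25.0 and 27.1 in ESR1KO females, and 20.8, 26.7, 22.2 and 34.9 in ESR1KO males. It was higher in wild type females than in males (0.74, edgeR adjusted p = 0.0123) and fell in ESR1KO females (-0.91, adjusted p = 0.000955), with an interaction of -0.90 (adjusted p = 0.0327). The first call was lost without FWT3 or MWT1 (adjusted p up to 0.0608). The interaction was lost without any 1 of the 6 wild type mice, FKO2 or MKO2 (adjusted p up to 0.102). It also passed over both sexes (-0.46, adjusted p = 0.0192), lost without FWT3 (0.0635). *Tk1* shares 83 exon bases with *Afmid*. *Gins4*, a helicase subunit, was higher in ESR1KO than in wild type females (0.41, adjusted p = 0.0372), a call lost without FWT1, FWT2, FWT3, MWT2, FKO2, FKO4 or MKO4 (adjusted p up to 0.165).

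Of 58 other mitotic genes, only *Ccnf*, cyclin F, passed. It was 7.26, 9.66 and 8.91 CPM in wild type females, 15.9, 23.5 and 19.8 in wild type males, 10.8, 12.3, 14.5, 11.9 and 11.9 in ESR1KO females, and 12.7, 12.8, 13.0 and 17.0 in ESR1KO males. Wild type females lay below all other mice. The sex difference in wild type mice was -1.20 (SE 0.16, edgeR adjusted p = 0.000145), and the interaction was 1.01 (adjusted p = 0.0146), lost without FWT1 (adjusted p = 0.0563) or MWT2. Like the members, the other mitotic genes were highest in FWT1 in its group for 55 of 58 and in MKO2 for 52.

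Of 15 cell cycle inhibitors, *Cdkn2b*, p15, was higher in ESR1KO than in wild type males (1.72, SE 0.36, edgeR adjusted p = 0.0219) and over both sexes (1.36, adjusted p = 0.00951). Its levels were near the detection limit, 0.02 to 0.10 CPM in wild type mice, 0.10 to 0.18 in ESR1KO females and 0.25 to 0.26 in ESR1KO males, with counts down to 1. The call in males was lost without MWT1, MWT2, MWT3, MKO1, MKO3 or MKO4 (adjusted p up to 0.123) and with DESeq2. It was also lost with the replicate block and when genes with few reads were not filtered out. *Cdkn2b* passed that filter only through the ESR1KO males, where it is highest, so neither call is independent of that group. *Cdkn1c*, p57, was higher in wild type females than in males (0.95, adjusted p = 0.0065) and shares exon bases with a gene on the other strand.

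Of 23 growth factors and receptors, *Btc*, betacellulin, a ligand of the EGF receptor, was 1.53, 1.38 and 1.42 CPM in wild type females, 2.35, 2.13 and 1.87 in wild type males, 3.12, 3.45, 2.79, 3.74 and 3.18 in ESR1KO females, and 3.51, 2.57, 3.27 and 2.55 in ESR1KO males. It rose in ESR1KO females (1.17, SE 0.16, edgeR adjusted p = 0.000203) and over both sexes (0.83, adjusted p = 0.000496), and both calls held without any single mouse. *Egfr*, the receptor, was lower in wild type females than in males (-1.09, adjusted p = 0.0211), lost without FWT1, FWT2, FWT3, MWT2 or MWT3 (adjusted p up to 0.119), and *Tgfbr2* was also lower (-0.69, adjusted p = 0.00902). *Wwtr1* and *Il6ra* passed over both sexes (0.34 and -0.71, both adjusted p = 0.0206) and in females (0.40, adjusted p = 0.0396, and -0.78, adjusted p = 0.0479), and the calls in females were lost in 8 and 11 of 15 fits without a mouse (adjusted p up to 0.170 and 0.202), those without FWT1, FWT2 or FWT3 among them. Over both sexes *Wwtr1* was lost without FWT2, FWT3, MWT2 or MWT3 (up to 0.0643) and *Il6ra* without FWT2 or MWT3 (up to 0.0802). *Myc*, named after its values were seen, was 1.88, 22, 5.63 and 3.59 CPM in MKO1 to MKO4 and passed in none of the 6 comparisons. Its values in the other groups are not given here. Single high mice in this list were not particular to MKO2. The highest ratio of any of the 23 genes to the other mice of the group was 5.95 in MKO2, for *Myc*. It was 8.36 in FWT1, 4.63 in MWT1 and 4.42 in FKO5, for genes not named here. Whether *Myc* was also high in FWT1 is therefore not shown. A link of *Myc* to the members was not tested.

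**Figure D5:**
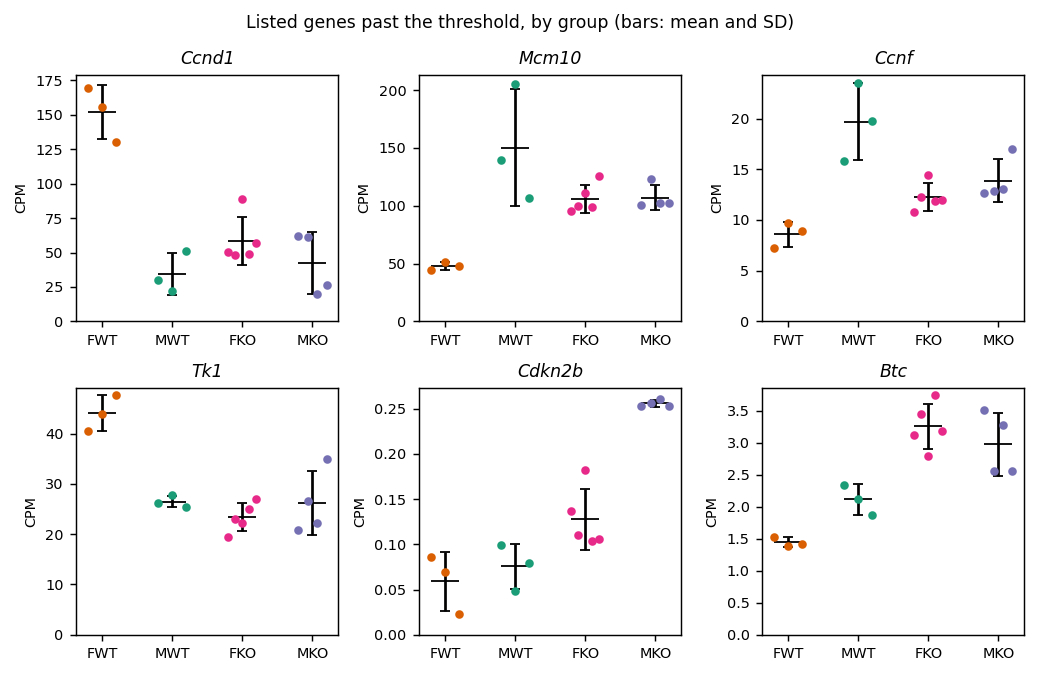
CPM of *Ccnd1*, *Mcm10*, *Ccnf*, *Tk1*, *Cdkn2b* and *Btc* in each mouse (points) by group, with bars for the mean and SD. In *Ccnd1* and *Tk1* the wild type females lie above the other groups, in *Mcm10*, *Ccnf* and *Btc* below them, and in *Cdkn2b* the ESR1KO males lie highest.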

How the data were processed

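Liver RNA of 15 mice was depleted of ribosomal RNA and sequenced as paired-end reads, with a second run for libraries of low yield. The authors deposited 1 table of raw read counts per gene, made per the submitters' processing notes with Trimmomatic 0.36, STAR and HTSeq 0.6.0 on GRCm38. The annotation release and the strand setting are not given in the sources used here, so reads of overlapping genes may be shared. Here edgeR 4.0.16 (R 4.3.3) was run on these counts after a filterByExpr filter set by group. TMM scaling gave factors of 0.957 to 1.04, and a quasi-likelihood F test took all 15 libraries with 1 mean for each group. p-values were adjusted by Benjamini-Hochberg over 17655 genes, and a gene passed at adjusted p under 0.05. CPM used the TMM-scaled library sizes. The test was checked on simulated counts. The simulated spread was capped below that of many members, and changes were put only into genes of higher count. The check therefore does not cover the most variable or lowest members. DESeq2 1.42.0, other filters and scalings, the compared groups alone, a replicate block and leaving out each mouse were tried as alternatives. Total counts of 27799061 to 78624766 set the precision, and low counts of single members carry counting error beside the spread between mice. No 2 libraries of the same group agreed within sampling noise, and pairs across groups were not compared.

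Exon lengths and overlaps came from GENCODE M21 on GRCm38, and promoters from RefSeq (GRCm38.p6). The members, the lists and the rule for named genes were chosen with earlier results of these data known. By that rule every member past the threshold was to be given in every mouse. Fewer than 10 passed, so the 5 members of highest level per length and *Mki67*, *Top2a*, *Ccna2*, *Ccnb1*, *Cdk1*, *Pcna*, *Mcm2*, *E2f1* and *Foxm1* were given, and every listed gene of the pathway past the threshold was named. *Cdc20* was added after its values were seen.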

Additional observations from a re-analysis of the deposited data

Results flagged for a closer look

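In the groups of 4 and 5 mice, 21 of 114 gene and group pairs held a mouse whose gap to the others exceeded Dixon's critical value. Chance flags about 1 in 20 where pairs are independent. These pairs share mice and hold genes that vary together, so 1 high mouse can flag many, and the 21 cannot be read against that share. The wild type groups of 3 mice, and with them FWT1, cannot be tested this way. MKO2 was the high mouse in 11: *Cdc20* 4.22 CPM, *Prc1* 4.11, *Cenpf* 4.97, *Cdk1* 3.92, *Ccna2* 3.52, *Kif11* 3.36, *Cenpe* 3.31, *Anln* 3.29, *Ttk* 0.956, *E2f7* 0.816 and *Mcm10* 123. FKO3 was the high mouse in 7: *Ccnb1* 1.41 CPM, *Aurkb* 1.23, *Plk1* 0.834, *Ube2c* 0.834, *Ttk* 0.469, *Ccnd1* 89.1 and the summed CPM of the members, 134.2. MKO3 was the low mouse for *Kif23* at 1.29 CPM, and MKO4 the high mouse for *Ccnf* at 17.0 and *Il6ra* at 47.4.

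The effect of the *Esr1* loss differed between the sexes by the interaction term for *Mcm10* (1.64 on the log2 scale), *Ccnf* (1.01) and *Tk1* (-0.90), and for 0 of the 43 members.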

How the results depend on the processing

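With DESeq2, other scalings and filters, a replicate block or the compared groups alone, 0 members passed in each comparison. The same held with a log2 fold change of at least 1.5 and with FWT1 and MKO2 left out together. It also held with each mouse left out in turn (0 to 0 over these fits). Members that a setting did not test count as not passed. One filter asked for a CPM above any value of *Melk* (at most 0.86), so its 0 there was fixed in advance. For most of these fits the share of all genes that passed is not given here. An unadjusted p gave 4, 1, 3 and 8 members (wild type females minus males, ESR1KO females minus males, ESR1KO minus wild type females, interaction), against 17.3%, 17.5%, 22.5% and 14.3% of all genes. The numbers of the mice did not pair them, since 1 of 13 same-numbered pairs had a correlation over 0.1, and with the replicate block 0 members passed in each comparison, while the calls of *Egfr* between wild type sexes (adjusted p = 0.0658), of *Ccnd1* (0.0743), *Gins4* and *Wwtr1* in females and of *Cdkn2b* in males were lost. Leaving out FWT1 and MKO2 together also ended the calls of *Ccnd1* (0.0841), *Gins4*, *Wwtr1* and *Il6ra* between ESR1KO and wild type females, of *Egfr* between wild type sexes (0.0984), and the interactions of *Tk1* (0.0762) and *Ccnf* (0.0893).

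Log2 fold changes of *Mki67* and *Ccnb1*, which passed no test, changed sign. Over the fits without a mouse, *Mki67* ranged from -0.0053 to 1.06 between wild type sexes and from -0.95 to 0.12 between ESR1KO and wild type females. *Ccnb1* ranged from -0.25 to 1.85 between wild type sexes, -1.10 to 0.43 between ESR1KO sexes, -1.59 to 0.51 between genotypes in females, and -0.17 to 1.31 in males. With FWT1 and MKO2 left out together, *Mki67* was -0.0050 and 0.12, and *Ccnb1* was -0.25, 0.43, 0.52 and -0.17, with an interaction of 0.68. The summed CPM of FWT1 was 2.17 times the mean of the other mice of its group and that of MKO2 1.59 times, and by the mean over members of log2 CPM these were 2.96 and 1.95. The cause of these shifts was not tested.

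Depth limits the low members, with counts down to 3, and groups of 3 mice limit every comparison with wild type mice. The p-values set each difference between groups against a spread estimated from these libraries. That spread holds variation between mice and between libraries, which cannot be told apart here.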
